A study of Homo sapiens with 6 samples.

Results

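The genes of the SR proteins, the hnRNP proteins and a few U2 factors of the spliceosome were followed in RKO cells, an established human colorectal cancer line, after knockdown of TRMT6. The set was a list of 37 gene symbols, matched by Ensembl identifier to a table of 20289 genes: 13 SR protein genes, 21 hnRNP genes and 3 genes of U2 factors. All 37 were found, and all 37 had a mean of at least 1 FPKM (fragments scaled to gene length and to library size, a level per length) over the 6 libraries. Both groups were RKO cells: 3 libraries came from cells with a control short hairpin RNA (shControl) and 3 from cells with a hairpin against TRMT6 (shTRMT6). TRMT6 binds tRNA and pairs with the catalytic subunit TRMT61A to form the methyltransferase for 1-methyladenosine in tRNAs. The labels name no agent, time, clone or hairpin sequence. Nor do they say whether each replicate was a culture of its own, so the spread behind the p-values may be technical.

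SR proteins carry RNA recognition motifs and a tail rich in arginine and serine, and bind exonic sequences, where they mostly favour the use of nearby splice sites. The hnRNP proteins coat nascent RNA and often act against SR proteins at the same exons. U2AF1 and U2AF2 recognise the 3' splice site, and SF3B1 holds the U2 snRNP on the branch point. Many genes of SR and hnRNP proteins limit their own level through exons that carry early stop codons and send the mRNA to decay. FPKM per gene add up all isoforms, so such exons are not seen here. A fall in a value can also stand for fewer cells with the mRNA as well as less mRNA per cell, which cannot be told apart in bulk RNA.

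TRMT6 itself read 14.4, 18.0 and 16.9 FPKM in the controls (replicates 1, 2 and 3), against 1.58, 1.73 and 1.09 FPKM in shTRMT6. The shTRMT6 libraries were all lower (log2 fold change -2.82, SE 0.13, limma adjusted p = 4.33e-08; exact permutation p = 0.1, the smallest that 3 against 3 allow). Depth, estimated roughly from the steps between low values, lay between 21.1 and 28.3 M fragments for the controls and between 18.1 and 20.4 M for shTRMT6. Of 7 colorectal epithelial markers, KRT19, CDH1 and VIL1 were listed at 0 in all 6 libraries, and the other 4 (EPCAM, KRT8, KRT18, CDX2) averaged over 1 FPKM; the summed level of the 7 ran from 123.6 to 156.1 FPKM in shControl and from 201.0 to 213.6 FPKM in shTRMT6. KRT18 made up most of that sum (105.0 to 135.6 against 179.1 to 193.3 FPKM), and its part in the results that follow was not tested, while KRT8 and CDX2 overlapped between the groups. EPCAM, like KRT18, did not overlap (3.01 to 4.83 FPKM in shControl against 5.25 to 7.4 FPKM in shTRMT6). Summed fibroblast markers were at most 1.36 FPKM and endothelial markers at most 0.17 FPKM. Of 5 leukocyte markers only CD68, a lysosomal protein that other cells make too, was above 1 FPKM. CD68 ran from 677.0 to 810.5 FPKM in the controls and from 738.4 to 996.4 FPKM in shTRMT6.

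A pair of libraries stood apart for these genes. In 36 of the 37 genes shTRMT6 replicate 3 was the lowest of its group, against 47.7% of all genes tested. The median ratio of that library to the mean of the other shTRMT6 libraries was 0.867 over the 37 genes and 0.958 over all genes tested. Within shControl, replicate 1 was the lowest in 24 of the 37 genes (48.3% of all genes tested). That library also rose most with GC content: its log2 values deviated from the mean of all 6 by 0.23 more per 10 points of transcript GC, against -0.16 to 0.035 in the other libraries. The other controls stood at -0.0052 and 0.035, and shTRMT6 at -0.073, -0.16 and -0.027, below every control. The trend thus differed between the groups, so a correction for it also acts on the difference between them. Some of the results that rest on either library are also given without it.

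The splicing factor genes were abundant, and most did not pass the test. Of the 37, 6 were higher and 5 lower in shTRMT6 at an adjusted p under 0.05, and 26 did not pass. That is 29.7% of the set, against 35.4% of the 10592 genes tested (19.3% higher and 16.1% lower). The median log2 fold change was 0.0035 over the set and 0.024 over all genes tested, and the median absolute log2 fold change was 0.17 and 0.24. The groups did not overlap in 15 of the 37 genes (40.5%), against 48.3% of all genes tested. When each library's trend on GC content was removed, 5 were higher and 10 lower (median -0.10, against 0.0024 over all genes), which is 40.5% of the set against 39.0% of all genes (19.7% higher and 19.3% lower). With the replicate number as a block 7 were higher and 7 lower, 37.8% of the set against 46.8% of all genes, and with both 48.6% were called against 48.3%. The 7 lower with the block alone include U2AF1, which, as given further on, cannot be read apart from a near-identical copy. With no filter on low values the shares were 24.3% and 19.6%. Without shTRMT6 replicate 3, 6 were higher and 4 lower (27.0% against 34.1% of all genes), and without shControl replicate 1, 4 were higher and 5 lower (24.3% against 34.2%). The set's share thus lay below, near or above that of all genes, by setting. By family, 15.4% of the SR genes and 38.1% of the hnRNP genes were called, with median log2 fold changes of 0.073 and -0.035. With the GC correction these shares were 38.5% and 47.6%, against 39.0% of all genes, and the medians -0.093 and -0.13. The low share of the SR genes thus depended on the setting.

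**Figure D1:**
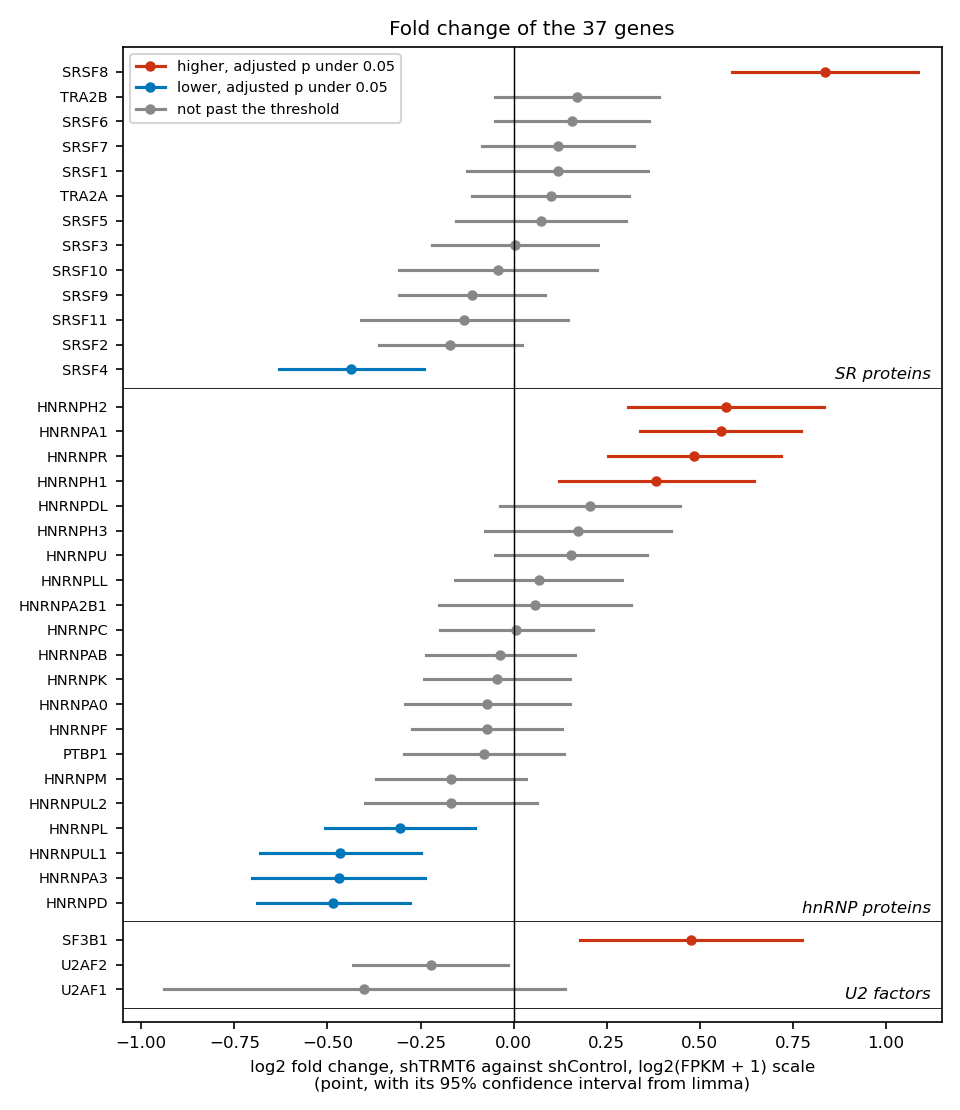
Log2 fold change of each of the 37 genes, shTRMT6 against shControl, on the log2(FPKM + 1) scale, with limma's 95% confidence interval as a bar; red marks genes higher and blue genes lower at an adjusted p under 0.05. The changed genes run from -0.48 (HNRNPD) to 0.84 (SRSF8), and changes in both directions occur among the SR and the hnRNP genes.

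The start regions of SRSF8 and SF3B1, which rose, and of HNRNPL, which fell, are shown to make the word counts that follow concrete. Each is the 250 bases before the most upstream RefSeq start (GRCh38.p14), 5' to 3' on the gene's strand, and overlaps no exon annotated in GENCODE release 29. Among the changed genes HNRNPH1 had such a region too, which has 61.6% GC, holds 0 of the words searched and is not printed. Capitals mark CCAAT (the word bound by NF-Y) and CACGTG (the E-box bound by MYC and USF factors), searched on both strands; the GC box GGGCGG counted further on is left in lower case.
SRSF8, chr11:95066627-95066876, plus strand: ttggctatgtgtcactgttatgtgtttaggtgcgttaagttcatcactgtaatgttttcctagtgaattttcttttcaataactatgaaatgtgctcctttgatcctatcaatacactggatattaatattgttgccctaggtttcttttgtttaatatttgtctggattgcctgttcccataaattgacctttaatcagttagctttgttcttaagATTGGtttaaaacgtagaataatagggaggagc
SF3B1, chr2:197435094-197435343, minus strand: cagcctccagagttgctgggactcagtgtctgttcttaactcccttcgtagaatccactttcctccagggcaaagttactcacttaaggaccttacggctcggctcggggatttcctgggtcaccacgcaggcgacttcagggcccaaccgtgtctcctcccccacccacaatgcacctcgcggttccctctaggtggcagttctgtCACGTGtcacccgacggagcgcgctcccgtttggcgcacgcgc
HNRNPL, chr19:38852348-38852597, minus strand: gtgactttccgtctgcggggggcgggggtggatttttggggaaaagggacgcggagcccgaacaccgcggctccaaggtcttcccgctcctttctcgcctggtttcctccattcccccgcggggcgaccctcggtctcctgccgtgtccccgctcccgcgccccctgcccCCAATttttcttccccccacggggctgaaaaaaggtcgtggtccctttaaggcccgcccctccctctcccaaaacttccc

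The SRSF8 region has 33.6% GC, the SF3B1 region 60.4% and the HNRNPL region 66.0%. SRSF8 holds a CCAAT word on the opposite strand, SF3B1 an E-box and HNRNPL a CCAAT word. A start region was found for 34 of the 37 genes (not for SRSF2, HNRNPA1 or TRA2A), with a median GC of 65.8% against 57.6% over 27305 genes. CCAAT occurred in 17 of the 34 and in 33.0% of all 27305 regions of this length, and the GC box GGGCGG in 22 of the 34 and in 42.2%. CACGTG occurred in 7 of the 34 (20.6%) and in 6.46% of all regions. Among the 10 changed genes with a region, 5 held CCAAT, 6 GGGCGG and 4 CACGTG. These are counts of words, and binding was not measured.

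Among the 13 SR protein genes SRSF8 rose, SRSF4 fell and 11 did not pass the test. SRSF8 (chr11:95067197-95071224, GRCh38 in GENCODE release 29), an intron-poor relative of SRSF2 and the lowest of the 37 genes in shControl, was 1.87-fold higher in shTRMT6. Its levels were 7.39, 9.23 and 8.65 FPKM in the controls (replicates 1 to 3), against 16.5, 16.6 and 14.3 FPKM in shTRMT6. Every shTRMT6 library was above every control (means 8.42 ± 0.941 and 15.8 ± 1.3 FPKM, SD, n = 3; log2 fold change 0.84, SE 0.12, adjusted p = 0.000257), and with the GC correction the log2 fold change was 0.64.

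SRSF4 (chr1:29147743-29181987), an SR protein with a long arginine-serine tail, moved the other way. It read 42.7, 43.8 and 44.1 FPKM in the controls, against 31.6, 32.7 and 31.5 FPKM in shTRMT6. The spread within a group was under 1 FPKM (SD 0.728 and 0.645, n = 3) and the groups stood far apart. The gene was 1.36-fold lower (log2 fold change -0.44, SE 0.09, adjusted p = 0.00278).

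The other SR genes gave log2 fold changes from -0.17 (SRSF2) to 0.17 (TRA2B), with 95% intervals that reached from -0.41 at the lowest (SRSF11) to 0.39 at the highest (TRA2B). SRSF1, the founding SR protein, read 85.7, 111.7 and 99.2 FPKM in the controls, against 112.0, 113.8 and 95.4 FPKM in shTRMT6, and the groups overlapped (log2 fold change 0.12, 95% interval -0.12 to 0.36). SRSF3, the most abundant SR gene, averaged 165.3 ± 17.2 and 165.5 ± 13.7 FPKM (SD, n = 3). SRSF2, which binds many alternative exons, was the 1 SR gene whose groups did not overlap without passing the test: 160.1, 156.3 and 160.5 FPKM against 146.9, 146.5 and 130.9 FPKM (adjusted p = 0.152).

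SRSF5, SRSF6 and SRSF7, which like SRSF3 are known for exons that control their own level, gave log2 fold changes of 0.073, 0.16 and 0.12. SRSF7 read 72.1, 81.6 and 74.9 FPKM in the controls, against 81.3, 89.1 and 78.4 FPKM in shTRMT6. The values of shTRMT6 replicates 1 and 3 fell within the range of the controls. SRSF9 averaged 141.6 ± 7.25 and 131.0 ± 8.3 FPKM (SD, n = 3) and overlapped as well.

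The Tra2 proteins, SR-like factors that bind purine-rich exonic enhancers, overlapped between the groups as well: TRA2B averaged 79.0 ± 6.53 and 89.1 ± 8.06 FPKM (SD, n = 3), and TRA2A gave a log2 fold change of 0.10 (95% interval -0.11 to 0.31). With the GC correction SRSF3, SRSF10 and SRSF11 passed as lower (log2 fold changes -0.19, -0.28 and -0.35; adjusted p = 0.0413, 0.0111 and 0.00756). In the uncorrected fit the same 3 genes gave 0.0035, -0.042 and -0.13. Summed over the 13 genes, SR mRNA came to 979 ± 52.9 FPKM in shControl and 981 ± 70.8 FPKM in shTRMT6 (SD, n = 3).

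**Figure D2:**
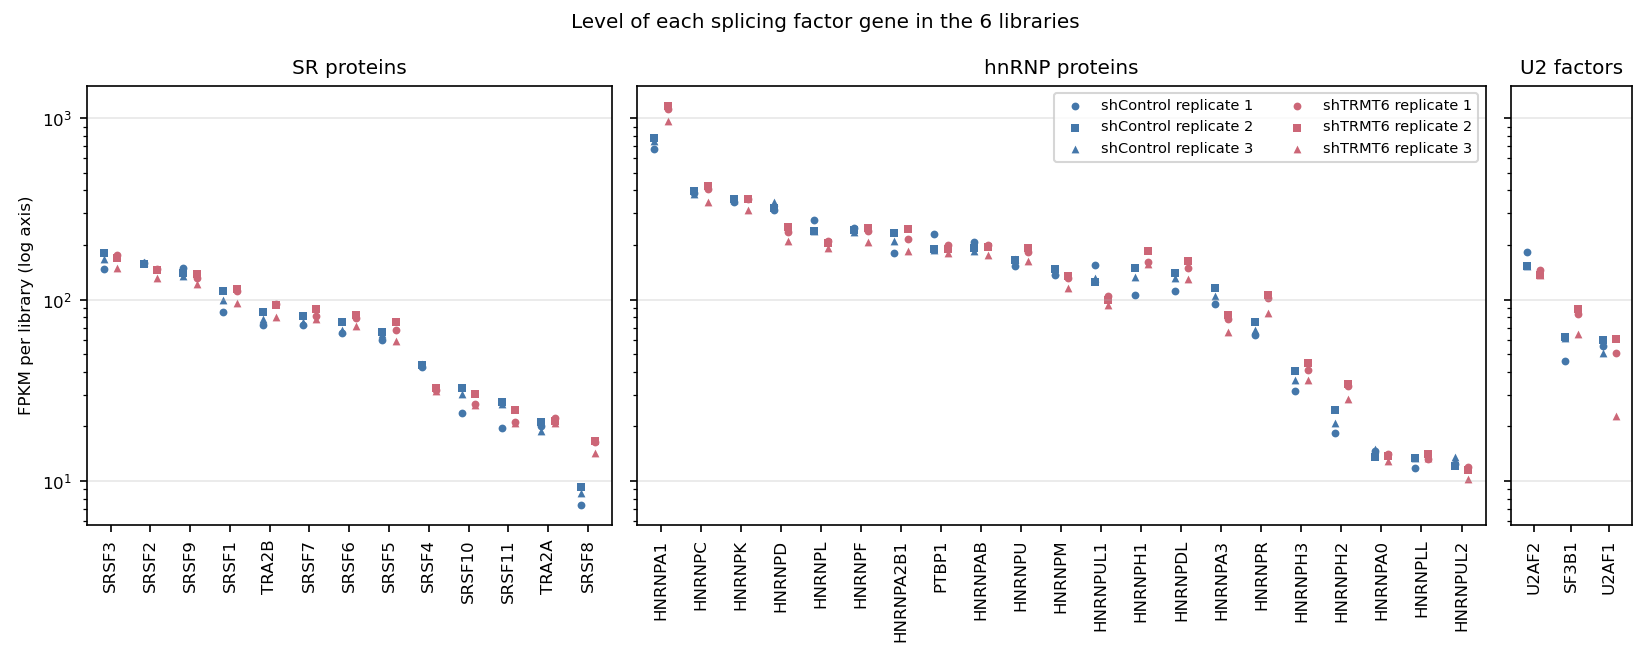
FPKM of each gene in each library on a log axis, in order of the shControl mean within each family; blue points are shControl and red points shTRMT6 libraries, with a marker shape for each replicate. HNRNPA1 lies above all others in every library, and the red triangles (shTRMT6 replicate 3) are the lowest of their group in 36 of the 37 genes.

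Among the 21 hnRNP genes 4 rose (HNRNPA1, HNRNPH2, HNRNPR and HNRNPH1) and 4 fell (HNRNPD, HNRNPA3, HNRNPUL1 and HNRNPL). HNRNPA1 (chr12:54280193-54287088), which represses exons and competes with SR proteins, was the most abundant of the 37 genes. Its levels were 680.5, 780.4 and 748.1 FPKM in the controls, against 1121, 1168 and 964.6 FPKM in shTRMT6. All shTRMT6 libraries were above all controls, and the gene was 1.47-fold higher (log2 fold change 0.56, SE 0.10, adjusted p = 0.00118). HNRNPA1 made up 18.0, 19.6 and 19.3% of the summed FPKM of the 21 hnRNP genes in shControl and 26.6, 26.8 and 26.2% in shTRMT6. This share divides out library-wide scaling, and in it shTRMT6 replicate 3 lay close to the rest of its group.

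The other 20 hnRNP genes together came to 3134 ± 51.6 FPKM in shControl and 3003 ± 252 FPKM in shTRMT6 (SD, n = 3), and these sums overlapped. HNRNPA1 has many processed copies in the genome, and 22.8% of its 75-base windows occur in other annotated genes. The 2 such copies in the table, HNRNPA1L2 and HNRNPA1L3, were at most 11.4 FPKM, and with their values added the log2 fold change of HNRNPA1 was 0.56 again.

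HNRNPH1 and HNRNPH2 encode near-identical proteins that bind runs of guanines. HNRNPH2 read 18.4, 24.6 and 21.0 FPKM in the controls, against 33.5, 34.5 and 28.2 FPKM in shTRMT6. The groups did not overlap, and it was 1.5-fold higher (log2 fold change 0.57, SE 0.12, adjusted p = 0.00337; 0.34 with the GC correction). A read-through gene with RPL36A shares 13.5% of its windows, and with that gene added the log2 fold change was 0.57 and the adjusted p 0.0155.

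HNRNPH1 read 105.7, 148.7 and 133.6 FPKM in the controls, against 161.8, 185.1 and 156.5 FPKM in shTRMT6. It was 1.3-fold higher (log2 fold change 0.38, SE 0.12, adjusted p = 0.0262), and shControl replicate 1 was the lowest library. The call ended without that library (log2 fold change 0.25, adjusted p = 0.0694), without shTRMT6 replicate 1 (0.0573) or 2 (0.109) and without a filter on low values (0.0914), and the adjusted p over 17 alternatives ran from 0.000181 to 0.109. The third member, HNRNPH3, averaged 35.9 ± 4.59 and 40.6 ± 4.16 FPKM (SD, n = 3), with overlapping groups, and their relative HNRNPF 242.1 ± 6.53 and 231.0 ± 21.4 FPKM.

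HNRNPR, an RNA-binding relative of SYNCRIP, rose 1.41-fold. It read 63.8, 75.5 and 68.1 FPKM in the controls, against 101.7, 105.7 and 84.6 FPKM in shTRMT6. The lowest shTRMT6 library, replicate 3, was still above every control (log2 fold change 0.48, SE 0.11, adjusted p = 0.00422; 0.28 with the GC correction, adjusted p = 0.0146).

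HNRNPD, also known as AUF1, binds AU-rich elements and promotes mRNA decay. It read 310.7, 320.0 and 343.9 FPKM in the controls, against 237.1, 250.6 and 209.6 FPKM in shTRMT6. All shTRMT6 libraries were lower, 1.40-fold in the mean (log2 fold change -0.48, SE 0.10, adjusted p = 0.00207). Its paralogue HNRNPDL lies 48060 bases away on chromosome 4 on the same strand (HNRNPD at bases 82352498 to 82374503, HNRNPDL at 82422564 to 82430408, GRCh38). HNRNPDL read 111.8, 139.8 and 131.8 FPKM in the controls, against 149.4, 163.9 and 129.2 FPKM in shTRMT6. These overlapped and did not pass (log2 fold change 0.21, adjusted p = 0.171), except with the replicate block (adjusted p = 0.0382).

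HNRNPA3, an A/B-type hnRNP, fell 1.39-fold. Its levels were 95.1, 115.8 and 105.0 FPKM in the controls, against 78.0, 82.6 and 66.7 FPKM in shTRMT6, with no overlap (log2 fold change -0.47, SE 0.11, adjusted p = 0.00504). At 42.5% GC it was the only one of the 5 lower genes under 45% GC, and with the GC correction its log2 fold change was -0.69. Of its A/B-type relatives HNRNPA1 rose, as given above, and HNRNPA2B1 (207.8 ± 26.5 and 216.4 ± 30.1 FPKM, SD, n = 3) and HNRNPA0 (14.3 ± 0.754 and 13.6 ± 0.641 FPKM) overlapped between the groups.

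HNRNPUL1, which acts in RNA processing and at DNA breaks, read 154.6, 125.8 and 131.5 FPKM in the controls, against 104.3, 99.0 and 93.3 FPKM in shTRMT6. It was 1.39-fold lower with no overlap (log2 fold change -0.47, SE 0.10, adjusted p = 0.00359). HNRNPL, a regulator that binds CA repeats, read 274.7, 237.5 and 239.6 FPKM in the controls, against 211.4, 204.0 and 191.4 FPKM in shTRMT6. It was 1.24-fold lower (log2 fold change -0.31, SE 0.09, adjusted p = 0.0222), and shControl replicate 1 was its highest library. The HNRNPL call ended without shTRMT6 replicate 1, 2 or 3 (adjusted p = 0.0534, 0.0655 and 0.0565), and the range over 17 alternatives was 0.00106 to 0.0655. The paralogue HNRNPLL, known for T-cell splicing, stood at 12.9 ± 0.947 and 13.5 ± 0.431 FPKM (SD, n = 3).

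Of the 13 hnRNP genes that did not pass, the log2 fold changes ran from -0.17 (HNRNPUL2) to 0.21 (HNRNPDL), with 95% intervals from -0.40 at the lowest (HNRNPUL2) to 0.45 at the highest (HNRNPDL). They included abundant core proteins. HNRNPC, which binds uridine tracts, averaged 388.5 ± 6.66 and 391.9 ± 39.9 FPKM, and HNRNPK, which binds cytosine-rich RNA, 352.9 ± 5.27 and 343.0 ± 28.5 FPKM (SD, n = 3). PTBP1, the polypyrimidine tract binding protein, averaged 202.3 ± 23.2 and 190.6 ± 9.63 FPKM, and its groups overlapped. HNRNPU, a nuclear scaffold protein, averaged 161.2 ± 7.77 and 179.8 ± 15.2 FPKM, with overlap, and HNRNPAB 194.9 ± 10.8 and 190.3 ± 13.3 FPKM. HNRNPM, which binds GU-rich RNA, read 136.4, 148.0 and 144.5 FPKM in the controls, against 132.2, 134.3 and 115.8 FPKM in shTRMT6. Its groups did not overlap, nor did those of HNRNPUL2, but neither gene passed (adjusted p = 0.178 and 0.237). With the GC correction 4 hnRNP genes were higher and 6 lower, a share of 47.6% called, against 39.0% of all genes. HNRNPA0 and HNRNPK then passed as lower (log2 fold changes -0.31 and -0.26, adjusted p = 0.0428 and 0.0253).

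The 8 pairs of related genes compared within each library gave ratios that do not move with library scaling. Such ratios can move with a library's trend on GC content, and the GC correction was not applied to them. GC content was 51.5 and 42.3% for HNRNPD and HNRNPDL, and 45.2 and 41.4% for HNRNPA1 and HNRNPA2B1. It was 53.1 and 40.5% for HNRNPL and HNRNPLL, 56.7 and 52.2% for HNRNPUL1 and HNRNPUL2, and 50.5 and 42.1% for HNRNPH1 and HNRNPH2. HNRNPD exceeded HNRNPDL 2.56 ± 0.249-fold in shControl and 1.58 ± 0.0469-fold in shTRMT6 (SD, n = 3), and the log2 ratio was lower by a difference of -0.69. HNRNPA1 exceeded HNRNPA2B1 3.56 ± 0.213-fold and 5.03 ± 0.252-fold, a log2 difference of 0.50. Ratios of HNRNPL to HNRNPLL, HNRNPUL1 to HNRNPUL2 and HNRNPH1 to HNRNPH2 differed by -0.37, -0.30 and -0.19. In these 5 pairs the groups did not overlap, with an exact two-sided permutation p of 0.1, the smallest that 3 against 3 allow (0.16 adjusted over the 8 pairs). TRA2A to TRA2B, SRSF3 to SRSF7 and U2AF1 to U2AF2 overlapped (exact permutation p = 0.5, 0.2 and 0.9). Without shControl replicate 1 the differences of HNRNPL to HNRNPLL and HNRNPUL1 to HNRNPUL2 shrank to -0.25 and -0.20, and that of U2AF1 to U2AF2 was -0.18 with all libraries and 0.22 without shTRMT6 replicate 3. U2AF1 cannot be read apart from a near-identical copy, as given further on, so its ratio to U2AF2 is not one of separate levels.

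Among the 3 U2 factors only SF3B1 passed the test, and that call was unsteady. SF3B1 read 45.8, 62.3 and 61.7 FPKM in the controls, against 83.5, 88.8 and 64.8 FPKM in shTRMT6. The groups did not overlap, by the narrow gap between shControl replicate 2 and shTRMT6 replicate 3, and the mean was 1.40-fold higher (log2 fold change 0.48, SE 0.14, adjusted p = 0.0177). The call ended without shControl replicate 1 (log2 fold change 0.33, adjusted p = 0.0624), without shTRMT6 replicate 1 (0.0677) or 2 (0.0728), without a filter (0.0837) and with the GC correction (log2 fold change 0.24, adjusted p = 0.064; 0.0383 with the block as well). Without shTRMT6 replicate 3 the log2 fold change was 0.61 and SF3B1 was still called. Over 17 alternatives the adjusted p ran from 0.000118 to 0.0837.

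U2AF2, the large U2AF subunit, read 183.0, 153.7 and 153.3 FPKM in the controls, against 144.8, 136.8 and 136.5 FPKM in shTRMT6. The groups did not overlap, but the gene passed only with the replicate block (log2 fold change -0.22, adjusted p = 0.0868, and 0.0169 with the block). Without shControl replicate 1, its highest library, the log2 fold change was -0.14.

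U2AF1, the small subunit, cannot be read alone, because 90.8% of its 75-base windows also occur in other annotated genes, chiefly U2AF1L5, annotated as a near-identical copy on the same chromosome. How the reads were divided between both entries was not tested, so neither value below is a level of its own. U2AF1 read 55.3, 59.6 and 50.5 FPKM in the controls, against 50.9, 60.7 and 22.8 FPKM in shTRMT6. U2AF1L5 read 44.0, 43.8 and 58.0 FPKM in the controls, against 43.2, 41.2 and 63.9 FPKM in shTRMT6. In shTRMT6 replicate 3 U2AF1 was at its lowest and the copy at its highest, and U2AF1 held 26.3% of the summed level, against 46.6 to 59.6% in the other 5 libraries. The sum of both was 99.2, 103.5 and 108.5 FPKM in the controls, against 94.1, 101.9 and 86.7 FPKM in shTRMT6.

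For U2AF1 alone the log2 fold change was -0.40 (SE 0.25, adjusted p = 0.226). With shTRMT6 replicate 3 left out it came to 0.015, and with shTRMT6 replicate 2 left out to -0.67, which made it a call (adjusted p = 0.0358), as did the replicate block (0.00556). By replicate number U2AF1 went from 55.3 to 50.9, 59.6 to 60.7 and 50.5 to 22.8 FPKM, so the fall lay chiefly in replicate 3. The p-value with the block draws on limma's variance prior over all genes as well as on this spread. For the sum, an alternative chosen after the data were seen, it was -0.14 (SE 0.09, adjusted p = 0.266).

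**Figure D3:**
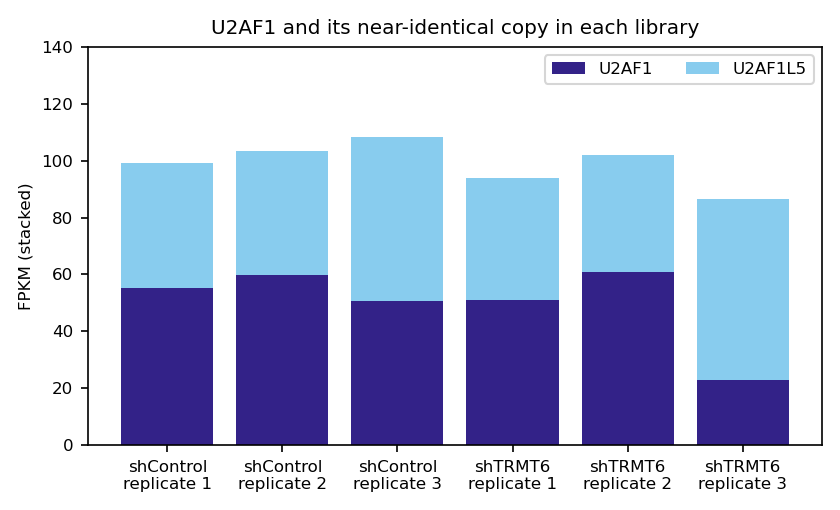
Stacked FPKM of U2AF1 (dark) and its annotated copy U2AF1L5 (light) in each library. The sums lie between 86.7 and 108.5 FPKM, while the dark part falls to 22.8 FPKM in shTRMT6 replicate 3.

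Fold changes of the set followed transcript GC content. Across the 37 genes, which share the same 6 libraries and are not independent, Pearson's r between log2 fold change and GC was -0.51, against -0.38 over all genes tested; it was -0.40 without shControl replicate 1 and -0.053 after the GC correction. The 18 genes under 45% GC had a median log2 fold change of 0.11, 13 of them above 0, and the 19 others a median of -0.11, with 13 below 0. After the correction the medians were -0.12 and -0.078. The 8 genes called in all 17 alternatives, GC correction included, were SRSF8, HNRNPA1, HNRNPH2 and HNRNPR (higher) and SRSF4, HNRNPD, HNRNPA3 and HNRNPUL1 (lower).

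**Figure D4:**
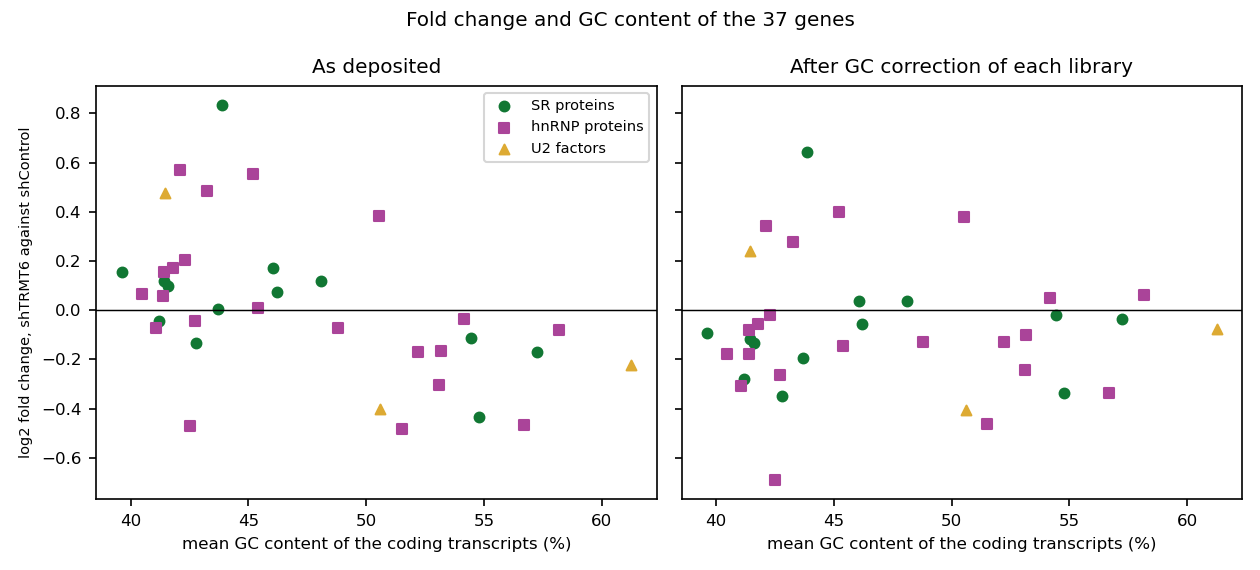
Log2 fold change (shTRMT6 against shControl) of the 37 genes against the mean GC content of their coding transcripts, before (left) and after (right) removal of each library's trend on GC; marker shape and colour show the family. The downward slope on the left (r = -0.51) is nearly gone on the right (r = -0.053), where most low-GC genes lie below 0.

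The genes around these factors in the splicing pathway were read from 7 further lists. Among the kinases that phosphorylate SR proteins and their importer, 9 of 10 were tested, SRPK2 rose (1.38-fold, adjusted p = 0.0125), and CLK3 fell (log2 fold change -0.42, adjusted p = 0.00474), as did SRPK1 (-0.41, adjusted p = 0.015); with the GC correction 1 was higher and 4 lower, and without shTRMT6 replicate 1 or 2 SRPK2 was no longer called. The share of this list called was 33.3%, against 35.4% of all genes tested, and 55.6% against 39.0% with the GC correction. SRPK1 and, in the lists that follow, SF3B3, LSM3, EFTUD2, PRPF8, LSM6, MAGOHB and SMG9 were chosen for naming after their values were seen. Of the other splicing regulators 44 of 51 were tested, and 9 rose and 8 fell (11 and 13 with the replicate block; median 0.048). Without shTRMT6 replicate 1, 6 were higher and 4 lower, and without shTRMT6 replicate 2, 5 and 5. The share called was 38.6%, against 35.4% of all genes tested, and 54.5% against 46.8% with the block. Without shTRMT6 replicate 1 it was 22.7% against 23.3%, and without shTRMT6 replicate 2 it was 22.7% against 22.7%. On the log2(FPKM + 1) scale the largest changes among them were in MBNL2, a muscleblind protein, from 2.69, 3.50 and 2.63 to 8.11, 6.05 and 6.02 FPKM (log2 fold change 0.97, adjusted p = 0.000336), and MATR3, a nuclear matrix protein (0.65, adjusted p = 0.00935). MATR3 read 32.37, 57.68 and 53.62 FPKM in the controls, against 74.49, 79.35 and 67.74 FPKM in shTRMT6, under the higher of its pair of identifiers. By the ratio of mean FPKM, MBNL3 (2.03-fold) and PTBP2 (1.61-fold), named after their values were seen, exceeded MATR3 (1.54-fold).

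The core machinery was read next. Of 23 factors of the Prp19 complex (NTC) and the catalytic steps 11 rose, and limma called 0 lower (1 at an unadjusted p under 0.05). Their median was 0.28 on the log2 scale, against 0.024 over all genes tested (9 higher and none lower with the GC correction, median 0.19; 1 lower with the replicate block; 7 higher and 0 lower without shTRMT6 replicate 1, and likewise without replicate 2). The share called was 47.8%, all higher, against 35.4% of all genes tested (19.3% higher). With the GC correction it was 39.1%, all higher, against 39.0% (19.7% higher). Without shTRMT6 replicate 1 it was 30.4% against 23.3%, and without replicate 2 it was 30.4% against 22.7%. CRNKL1 went from 5.05, 6.48 and 5.86 to 12.5, 12.8 and 10.9 FPKM (2.08-fold, adjusted p = 0.000137) and SYF2 rose 2.01-fold (adjusted p = 0.000224). Of 19 other U2 snRNP and branch site factors 6 rose, among them SNRPB2 (1.44-fold, adjusted p = 0.00229) and DDX46 (1.48-fold, adjusted p = 0.00768), and SF3B3 fell (log2 fold change -0.32, adjusted p = 0.0212; 8 higher and 4 lower with the block). The share of this list called was 36.8%, against 35.4% of all genes tested, and 63.2% against 46.8% with the block.

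Of 22 U4/U6.U5 tri-snRNP genes 2 rose and 4 fell. The share called was 27.3%, against 35.4% of all genes tested. PRPF3 rose 1.68-fold (adjusted p = 0.000364) and LSM3 by a log2 fold change of 0.31 (adjusted p = 0.035), and LSM8, of the ring that binds U6 RNA, fell from 16.9, 14.4 and 18.3 to 8.28, 8.92 and 8.01 FPKM (log2 fold change -0.89, adjusted p = 0.000145). The other lower genes were EFTUD2 and PRPF8, of the U5 snRNP, and LSM6 (log2 fold changes -0.44, -0.38 and -0.35). Of 10 U1 and Sm core genes tested 2 rose, SNRPD1 and SNRPD2 (1.24-fold and 1.18-fold, adjusted p = 0.0375 and 0.0475). The share of this list called was 20%, against 35.4% of all genes tested, and 20% against 39.0% with the GC correction. Limma called 0 of the 10 lower, and 0 had an unadjusted p under 0.05 in that direction; with the GC correction 1 was higher and 1 lower. Both calls were lost with no filter, with median-of-ratios scaling, with no variance trend and without shControl replicate 3, shTRMT6 replicate 1 or shTRMT6 replicate 2. Of 18 genes of the exon junction complex and nonsense-mediated decay 2 rose, RBM8A (1.39-fold, adjusted p = 0.003) and MAGOHB (log2 fold change 0.42, adjusted p = 0.0436). The 2 that fell were SMG6, the decay endonuclease (log2 fold change -0.62, adjusted p = 0.00111), and SMG9 (-0.41, adjusted p = 0.0179). In this list 22.2% were called, against 35.4% of all genes tested. Over the 17 alternatives the tri-snRNP list had 1 to 5 genes higher and 3 to 6 lower, the other U2 list 4 to 8 and 0 to 4, the Prp19 and catalytic step list 7 to 14 and 0 to 1, and the exon junction and decay list 1 to 3 of each.

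**Figure D5:**
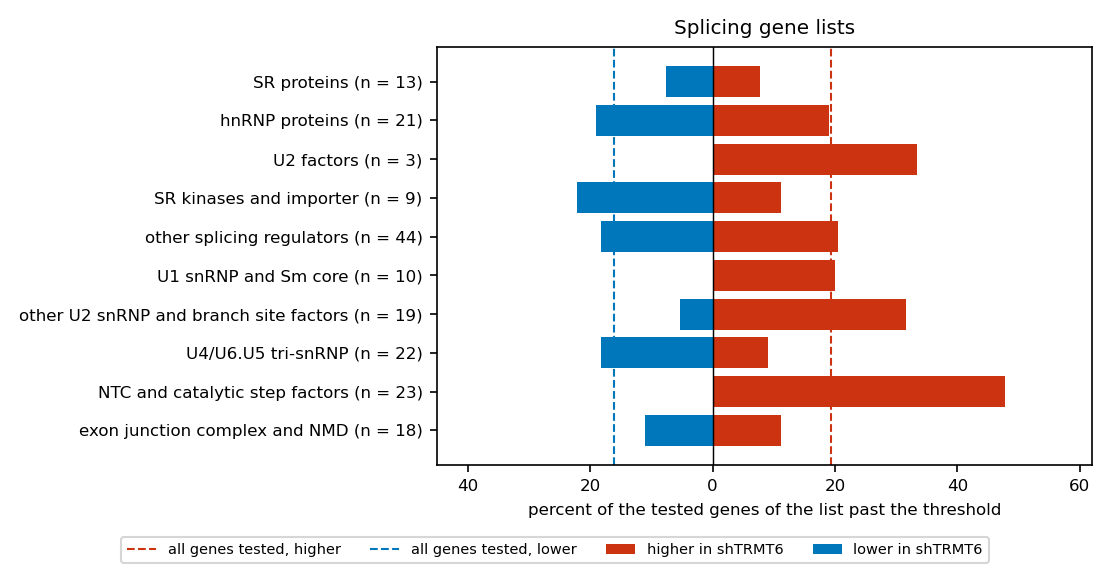
Percent of the tested genes of each family or list that were higher (red, to the right) or lower (blue, to the left) in shTRMT6 at an adjusted p under 0.05; dashed lines mark all genes tested (19.3% higher, 16.1% lower). The hnRNP bars end near the dashed lines, the SR bars short of them, and the bar of the Prp19 and catalytic step list reaches farthest to the right. All bars are from the fit without the GC correction, with which 38.5% of the SR genes were called, against 39.0% of all genes.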

How the data were processed

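RNA of RKO cells was sequenced in 6 libraries. Per the file headers, the authors deposited 1 FPKM value for each gene in each library. Tools in the submitters' processing notes, listed with no role, were RSEM, StringTie 1.3.1, HISAT2, Bowtie2 2.2.8 and fastp 0.18.0. Build, gene models and strand setting: not given in the sources used here. Column names carry other abbreviations of the groups than the sample titles, and each was matched to the title of its group and replicate number. FPKM carry no counts, so no count model was used. Depth was estimated from the steps that low FPKM take in genes having 1 transcript of at most 1000 bases (searched from 12 to 35 M fragments).

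Of 20289 genes, the 10592 that averaged 1 FPKM or more were tested two-sided with limma 3.58.1 (R 4.3.3; prior variance trended on level) on log2(FPKM + 1). The p-values were adjusted over all of them by Benjamini-Hochberg, at a threshold of 0.05. Every adjusted p of a single gene is from this limma model unless an exact permutation test is named; fold changes in words are ratios of mean FPKM, and log2 fold changes, which understate the change of low genes, are on the log2(FPKM + 1) scale. The model was tested on simulated data. Coordinates, GC content (mean over coding transcripts), and 75-base windows shared with other genes came from GENCODE release 29, by identifier. Alternatives were other pseudocounts, filters, scalings and variance priors, a replicate block, removal of each library's smooth trend on GC content (lowess, span 0.3), and each library left out in turn. Deviations from the group means of same-numbered libraries correlated across genes with r = 0.21, 0.36 and 0.17, and those of unlike numbers with r from -0.29 to 0.094. Deviations within a group add up to 0, so these values depend on each other. The replicate block took the numbers to pair the libraries, while the main fit and the exact permutation tests did not. What a number stands for is not in the labels. The members and gene lists were chosen with earlier results of these data known. All 37 members and TRMT6 could be named; from each further list, the 2 called genes that changed most (absolute log2 fold change) were named. For MATR3, which names a pair of identifiers in the table, the one with the higher mean was used, and the other was not added to it.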

Additional observations from a re-analysis of the deposited data

How the results depend on the processing

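Over all genes, 2042 were higher and 1704 lower; with the replicate block these were 2702 and 2252. Leaving out 1 library gave 1295 to 2027 higher and 1112 to 1731 lower genes, fewest without shTRMT6 replicate 2. The GC correction raised the SR genes called lower from 1 to 4, and with the replicate block as well it gave 4 SR and 8 hnRNP genes lower. Called in either direction with the correction were 38.5% of the SR and 47.6% of the hnRNP genes, against 39.0% of all genes. With the block as well these shares were 38.5% and 57.1%, against 48.3%. For the U2 factors, 1 gene was called, against 3 with the replicate block, 0 with the GC correction and 0 without a filter on low values, and 0 to 1 when 1 library was left out. One of the 3 was U2AF1, which cannot be read apart from U2AF1L5. Its lower value lay chiefly in shTRMT6 replicate 3, where U2AF1L5 was at its highest. Log2 fold changes that turned from above 0 to a call below 0 were those of SRSF3 (-0.19 with the GC correction, alone and with the block), HNRNPA2B1 (-0.18) and HNRNPC (-0.15, both with the GC correction and block). The block changed no other call than those of HNRNPDL, U2AF1 and U2AF2. The cause of these shifts was not tested. Other pseudocounts, scalings, variance priors and a mean of at least 5 FPKM changed no call among the 37 genes. The 5 gene pairs whose ratios did not overlap between the groups kept their direction under other pseudocounts and with each library left out, while U2AF1 to U2AF2 ran from -0.46 to 0.22 on the log2 scale. The ratios were not computed with the GC correction. Depth is known only by estimate and gives no interval for a single value.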

Other observations

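The read-through gene of HNRNPUL2 with BSCL2 shares 44.9% of the 75-base windows of HNRNPUL2. It was listed at 32.4, 29.2 and 30.2 FPKM in the controls, against 24.4, 26.6 and 24.5 FPKM in shTRMT6, above HNRNPUL2 itself at 12.7 ± 0.757 and 11.2 ± 0.856 FPKM (SD, n = 3). With both added, an alternative chosen after the data were seen, the log2 fold change was -0.25 (limma adjusted p = 0.0539), against -0.17 for HNRNPUL2 alone (adjusted p = 0.237). HNRNPA1L2, a processed copy of HNRNPA1, read 7.84, 8.33 and 6.85 FPKM in the controls, against 11.3, 11.4 and 11.3 FPKM in shTRMT6, and whether these are its own reads was not tested. SRSF2 and SRSF9 share 26.0% and 35.3% of their windows with the overlapping genes MFSD11 and GATC, and SRSF1 shares 55.2%, chiefly with a gene model listed at no more than 1.69 FPKM.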
